A study of Mus musculus with 8 samples.

Results

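The 500 strongest isolated distal regions of open chromatin that appeared in both Tcf7/Lef1 knockout libraries and in neither control library were described in early T-lineage progenitors of the mouse. Peaks of the 4 ATAC-seq lists were merged where they overlapped by 1 bp, which gave 134830 regions outside the mitochondrial chromosome. Of these, 8939 held a peak in both knockout lists and in neither control list, and 8366 of them lay over 1 kb from any gene start in the expression tables, measured from the region's centre. Another 2403 of those were dropped because a second such region lay within 25 kb, and 5963 isolated regions remained. The members were selected on a measured value, the lower of the replicates' peak values, the −log10 q that the authors' peak caller gave (the larger the value, the stronger the evidence for a peak over local background). The 500 highest were taken.

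Stem and progenitor cells (LSK, that is, cells without lineage markers that carry Sca-1 and c-Kit) were taken from the bone marrow of CreER+ mice for every library and cultured over OP9-DL1 stroma, which presents the Notch ligand Delta-like 1. Control donors were CreER+ WT and knockout donors were CreER+ with Tcf7-floxed and Lef1-floxed alleles. Both genotypes carried the inducible Cre and received 4-OH tamoxifen on days 3 to 5. Cells with the phenotype Lin-CD8-CD4-CD44hiCD25- ckit+, called DN1 in the labels, were sorted on day 7, and 2 control and 2 knockout libraries were made for RNA-seq and for ATAC-seq. The labels do not say which promoter drives CreER, nor whether the replicates are different mice or different cultures, so p-values measure only the spread between these libraries, which may be technical.

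ATAC-seq marks DNA that a transposase can reach. Most such sites away from gene starts are enhancers, insulators or other regulatory elements, which bind transcription factors and can act on genes at a distance. TCF1, encoded by Tcf7, and LEF1 are related DNA-binding factors of the Wnt pathway. TCF1 is induced by Notch in the thymus and is needed for the T-cell programme, during which chromatin of T-cell genes opens and that of stem-cell and alternative-lineage genes closes.

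The deleted genes checked the labels. Tcf7 RNA, in TPM (transcripts scaled to length and library size), was 518 and 510 in control against 13.2 and 12.4 in knockout. Lef1 stood at 1.66 and 1.099 TPM in control and at 1.46 and 1.57 TPM in knockout, near the floor in every library, so its RNA did not check its deletion. The markers of the sort were also read: Kit stood at 251 and 238 TPM in control and 157 and 157 TPM in knockout, Cd44 was at 94.0 to 109 TPM throughout, and Cd4 and Cd8a were under 2 TPM in every library. Il2ra, which encodes CD25, a marker the sort left out, stood at 136 and 133 TPM in control and 0.658 and 0.393 TPM in knockout. From 103009 to 111007 peaks were listed per ATAC library, and the RNA libraries listed 13050 to 13314 genes at 1 TPM or more. Peak lists carry no read counts, so no test between ATAC libraries was made. The lowest deposited −log10 q was between 2.74 and 2.87, and a region without a listed peak in control may still have been partly open.

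The mm10 sequence of most regions was not analysed here, but 12 RefSeq promoter windows (250 bases before to 50 after a start, build GRCm38.p6) overlapped 11 of the regions. Their starts belong mostly to non-coding Gm transcripts outside the expression tables, and 9 of the 11 regions had their strongest summit inside a window. The stretches below are shown because they are the DNA of the regions themselves. Each is the part of a region before the start, 5′ to 3′ in the direction of the transcript. Capitals mark matches to the searched motifs: here AGATAA of GATA factors, CAGGAAG of ETS1-type ETS factors, TGACAG of MEIS, TGANTCA of AP-1, TTGCNNAA of C/EBP, CAGCTG of E proteins and CATCTG of SCL-type factors, on either strand.
Gm41638, rank 87, chr17:83956832-83957053 (minus strand): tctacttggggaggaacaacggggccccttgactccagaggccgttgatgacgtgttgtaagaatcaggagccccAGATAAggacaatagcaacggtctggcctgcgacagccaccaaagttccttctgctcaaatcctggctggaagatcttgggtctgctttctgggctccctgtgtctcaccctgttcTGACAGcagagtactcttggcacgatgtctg
Gm34026, rank 183, chr8:106399795-106400044 (plus strand): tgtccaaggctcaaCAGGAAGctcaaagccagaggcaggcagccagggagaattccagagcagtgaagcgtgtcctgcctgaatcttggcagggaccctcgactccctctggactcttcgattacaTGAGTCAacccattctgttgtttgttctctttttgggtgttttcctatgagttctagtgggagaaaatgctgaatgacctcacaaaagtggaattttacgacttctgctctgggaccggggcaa
Gm39895, rank 311, chr2:103893815-103894059 (plus strand): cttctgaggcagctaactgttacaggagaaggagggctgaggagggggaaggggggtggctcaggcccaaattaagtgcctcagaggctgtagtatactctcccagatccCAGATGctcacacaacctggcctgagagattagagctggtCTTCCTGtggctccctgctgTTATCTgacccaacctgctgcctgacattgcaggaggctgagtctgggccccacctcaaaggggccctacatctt
Arap1, rank 352, chr7:101394175-101394387 (plus strand): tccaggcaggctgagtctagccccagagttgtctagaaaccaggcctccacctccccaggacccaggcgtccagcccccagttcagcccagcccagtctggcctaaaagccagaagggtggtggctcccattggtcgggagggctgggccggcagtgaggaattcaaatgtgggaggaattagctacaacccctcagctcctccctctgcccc
Rnase4, rank 468, chr14:51095750-51095999 (plus strand): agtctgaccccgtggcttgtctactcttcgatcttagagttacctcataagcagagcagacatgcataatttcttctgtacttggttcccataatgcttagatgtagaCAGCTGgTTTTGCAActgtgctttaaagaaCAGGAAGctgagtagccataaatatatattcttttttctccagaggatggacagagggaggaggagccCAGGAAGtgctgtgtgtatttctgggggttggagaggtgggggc
The region of rank 87 lies just before the RefSeq starts of Gm41638 and had 8430430B14Rik as its nearest listed gene. Among the stretches not shown, that of Gm40374 had an ETS1-type match and that of Gm10575 a MEIS match. Those of Gm31771 and Gm41485 had no match. Of 18 motifs searched, 3 had a match in 4 windows and none in more. The AGATAA motif was found in 4 of the 12 whole windows of 300 bases, against 11.2% of 32851 RefSeq windows, CAGGAAG in 4 of 12, against 13.3%, and TGACAG in 4 of 12, against 19.2%. The E-protein motif CAGCTG was in 1 of 12, against 16.3%, and the PU.1-type motif GAGGAAG in 1 of 12, against 13.6%. These counts rest on 12 windows, of which 2, those of Gm41638, overlap each other and share the TGACAG printed above. A match in a whole window need not lie in the region that overlaps it. The TCF and LEF letters ATCAAAG were in 0 of 12, against 3.73% of all windows. The count says only that these letters were not in these windows. Among the genes of the windows, Arap1 and Rnase4 were in the expression tables. Arap1, a GTPase-activating protein, stood at 73.7 and 80.1 TPM in control and 60.1 and 56.8 TPM in knockout (log2 change −0.39, limma adjusted p = 0.0088). Rnase4, a secreted ribonuclease, stood at 3.32 and 3.77 TPM in control and 4.04 and 4.76 TPM in knockout, which was not called (limma adjusted p = 0.34).

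A microRNA gene was the nearest start for 20 regions, and 19 of these genes were in the RefSeq table. The mature forms of 5 of them are shown, those among the 15 strongest regions or within 5 kb of a region, with the seed (bases 2 to 8, which pair with target RNAs) in capitals.
miR-99a-5p, chr16:77598940-77598961 (plus strand): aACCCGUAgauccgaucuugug
miR-99a-3p, chr16:77598977-77598997 (plus strand): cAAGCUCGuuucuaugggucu
miR-690, chr16:28599940-28599961 (minus strand): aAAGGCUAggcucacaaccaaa
miR-340-5p, chr11:50069720-50069741 (plus strand): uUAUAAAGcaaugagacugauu
miR-340-3p, chr11:50069762-50069783 (plus strand): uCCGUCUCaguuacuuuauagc
miR-192-5p, chr19:6264857-6264877 (plus strand): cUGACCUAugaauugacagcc
miR-192-3p, chr19:6264900-6264921 (plus strand): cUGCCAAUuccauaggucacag
miR-6418-3p, chr5:137529509-137529530 (minus strand): aCUGCAACcuccuuucuccagg
miR-6418-5p, chr5:137529551-137529571 (minus strand): uCAGGGGAagggaagagaugc
The 9 seeds shown all differ. The RNA libraries do not measure mature microRNAs. Of the 6 hairpin entries that passed the filter on low values, 1 was higher and 2 were lower in knockout. Over all 13228 tested genes 25.2% were higher and 14.7% lower, and 6 entries are too few to set against those shares.

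The peak values that chose the regions are given as a description. The lower value ran from 13.4 to 68.7 with a median of 15.8, and 398 regions lay under 20, 87 from 20 to under 30 and 15 at 30 or more. The last place fell inside a tie: 33 regions shared a value of 13.3953, of which 14 were kept and 19 were not, in the order of chromosome and position. The nearest distinct values were 13.4071 above and 13.3872 below. The replicates gave medians of 17.8 and 18.1, and 69 regions differed between replicates by more than 1.5 times. Summits lay within 50 bp of each other in 407 of the 500 regions. The membership depended on each list: when 1 of the 4 was left out and the choice repeated, 46.4% (without control replicate 2) to 58.4% (without knockout replicate 2) of the regions then chosen overlapped the 500. As the plot of both knockout values shows, a few regions stood far above a dense lower edge.

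**Figure D1:**
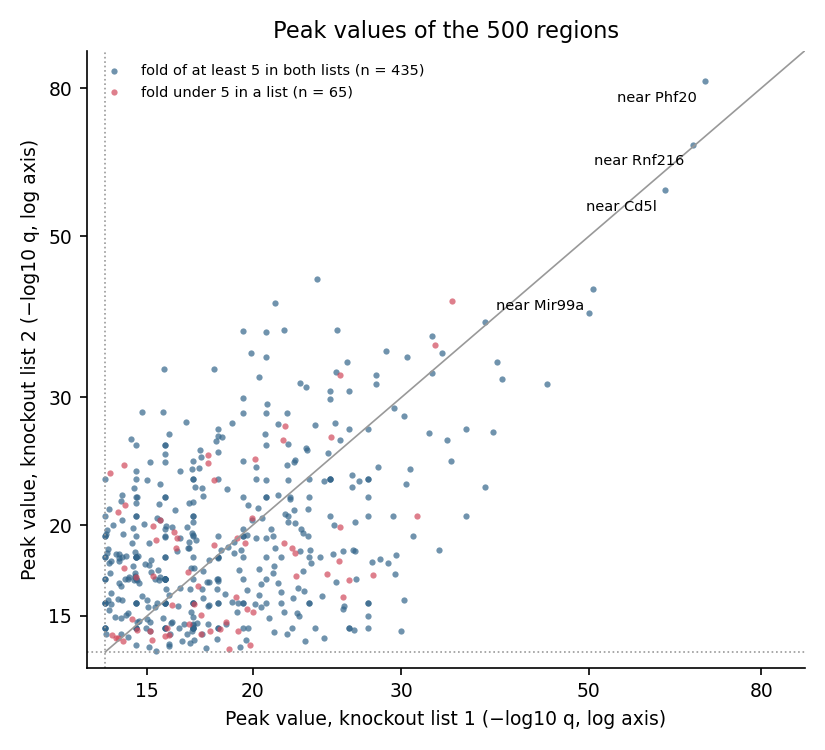
Peak values (−log10 q, log axes) of the 500 regions in knockout list 1 (x axis) and knockout list 2 (y axis), with the line of equal values and dotted lines at the lowest value kept, 13.3953. The 65 regions in red had a fold enrichment under 5 in a list; the regions nearest Phf20, Rnf216, Cd5l and Mir99a lie at the upper right.

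Strong among knockout-only regions did not mean strong among peaks. The median over all knockout peaks was 21.3 and 21.4, above the medians of the 500. Distal regions with a peak in all 4 lists, 65222 in number, had knockout medians of 28.9 and 29.6. Under the mirrored rule, the 500 strongest isolated control-only regions began at 22.2 and reached 170, and 1183 isolated control-only regions lay at or above the lowest value kept here. The fold enrichment over background, another value of the authors, had medians of 8.80 and 8.73 in the 500 and ran from 2.96 to 19.8. It was under 5 in at least 1 list for 65 regions. The median distance to the nearest region with a control peak was 1.63 kb for those 65 and 5.54 kb for the others.

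The regions lay among sites already open in control. A region with a control peak was within 1 kb of 67 of the 500 (13.4%), within 5 kb of 53.8% and within 10 kb of 72.4%. The other 5463 isolated knockout-only regions gave 14.97%, 52.6% and 70.7%. The centre was inside a gene body of the expression tables for 54.2%, against 51.9% of the other isolated knockout-only regions and 56.6% of the 500 control-only regions. RefSeq gene bodies held a further 43, and 186 lay in no gene body of either source. The median distance to the nearest gene start was 23.0 kb, with 133 regions within 10 kb, 129 at 10 to 25 kb, 148 at 25 to 100 kb and 90 beyond.

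The strongest regions sat mostly beside genes whose RNA did not pass the test. Rank 1 (chr2:156210764-156211136, mm10) lay inside Phf20, a chromatin protein of a histone acetyltransferase complex, 14.3 kb from its start, with values of 68.7 and 81.9. Phf20 stood at 29.3 and 23.9 TPM in control and at 33.4 and 33.7 TPM in knockout, a difference that was not called (limma adjusted p = 0.066). Rank 2 (chr5:143106921-143107350) lay inside Rnf216, a ubiquitin ligase, with values of 66.4 and 66.9. Rnf216 stood at 41.9 and 45.0 TPM in control and 49.6 and 49.8 TPM in knockout (limma adjusted p = 0.075). The libraries of the genotypes did not overlap for either gene, but neither difference was called.

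Rank 3 (chr3:87330778-87331170) was intergenic, 26.9 kb upstream of Cd5l, a scavenger receptor-like protein secreted by macrophages, with values of 61.6 and 57.9. Cd5l was listed at 0 and 0.545 TPM in control and at 0.250 and 0.142 TPM in knockout, too low to test. Rank 4 (chr16:77499833-77500286) lay inside Mir99ahg, the host transcript of Mir99a, with values of 50.5 and 42.3. A shared peak 55.9 kb away was at 10.3 and 10.1 in control and at 33.4 and 37.0 in knockout. Rank 5 (chr16:28511483-28511800) lay inside Fgf12, a fibroblast growth factor homologue, with values of 50.02 and 39.2 and the microRNA gene Mir690 as nearest start. A shared peak 6.30 kb from it was at 35.6 and 35.0 in control and at 73.9 and 69.5 in knockout. At both loci, then, the next open site had higher peak values in knockout as well.

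Of the 15 strongest regions, 3 had a called nearest gene. Rock2, a kinase of the actin cytoskeleton, stood at 47.6 and 43.9 TPM in control and 59.3 and 56.3 TPM in knockout (rank 6, limma adjusted p = 0.017). Ammecr1 stood at 10.4 and 9.19 TPM in control and 15.6 and 15.7 TPM in knockout (rank 12, limma adjusted p = 0.011). 2900026A02Rik fell from 28.0 and 25.6 TPM to 11.1 and 11.8 TPM (rank 7, limma adjusted p = 0.0012). Rock2 lost its call when control replicate 2 or knockout replicate 1 was left out (limma adjusted p = 0.079 and 0.082). Ammecr1 lost its call on leaving out control replicate 2 or either knockout library (limma adjusted p of 0.055 to 0.061). Rsrc1 (a splicing-related protein), Epb41 (protein 4.1 of the membrane skeleton), Fanci (a DNA repair protein) and Ppfibp2 (liprin beta 2) were tested and not called, while Hmgcll1 was below the filter. Epb41 was called with the replicate numbers as a block and without control replicate 2 (limma adjusted p = 0.033 and 0.021), and Phf20 without control replicate 1 (0.038).

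The region of rank 7 shows how close some calls were to a shared site. It had values of 34.5 and 40.7 with fold enrichments of 4.33 and 4.70. A peak 0.514 kb away was at 209 and 210 in control and at 144 and 130 in knockout. At rank 11, inside Ppfibp2, the nearest site with peaks in all 4 lists stood 3.05 kb away at 139 and 155 in control and at 14.9 and 17.5 in knockout. There a knockout-only region lay beside a site whose peaks were lower in knockout.

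Genes of the stem and progenitor list were the nearest start of 8 of the 500 regions (1.6%). The same list of 31 genes took 16 of the other 5463 isolated knockout-only regions (0.293%), 3 of the 500 control-only regions (0.6%) and 323 of the 65222 distal regions in all 4 lists (0.495%). The list was written with earlier results of these data known, so these shares are a description. The 8 genes were Tal1, Gfi1b, Zfpm1, Erg, Cd34, Mecom, Runx1 and Meis1, of which the last 5 had their start over 100 kb from the region. All 8 were called, 4 higher and 4 lower in knockout. Over the whole list, 14 of 31 tested genes were higher and 10 lower, with a median log2 change of 0.20. Of all 13228 tested genes, 25.2% were higher and 14.7% lower, with a median of 0.093.

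Tal1, the basic helix-loop-helix factor SCL that is required for blood stem cells, had a knockout-only region 7.97 kb upstream of its start (rank 16, chr4:115048299-115048614), with values of 29.4 and 29.0. Tal1 RNA stood at 2.97 and 3.96 TPM in control and at 24.4 and 21.2 TPM in knockout, a 6.58-fold rise (log2 change 2.42, SE 0.17, limma adjusted p = 6.6e-04). The groups lay far apart, with the lowest knockout library well above the highest control library. The next region, 0.489 kb away, was open in all 4 lists, at 58.3 and 57.8 in control and 65.4 and 74.0 in knockout. A site 3.9 to 3.4 kb before the start had 14.3 and 15.6 in control and 36.9 and 41.9 in knockout. The start itself had 33.8 and 31.7 in control and 46.6 and 38.6 in knockout. A site 7.4 to 7.7 kb after the start went the other way, with 30.5 and 33.2 in control and 9.34 and 12.2 in knockout. The map of the locus shows that most sites around Tal1 were shared.

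**Figure D2:**
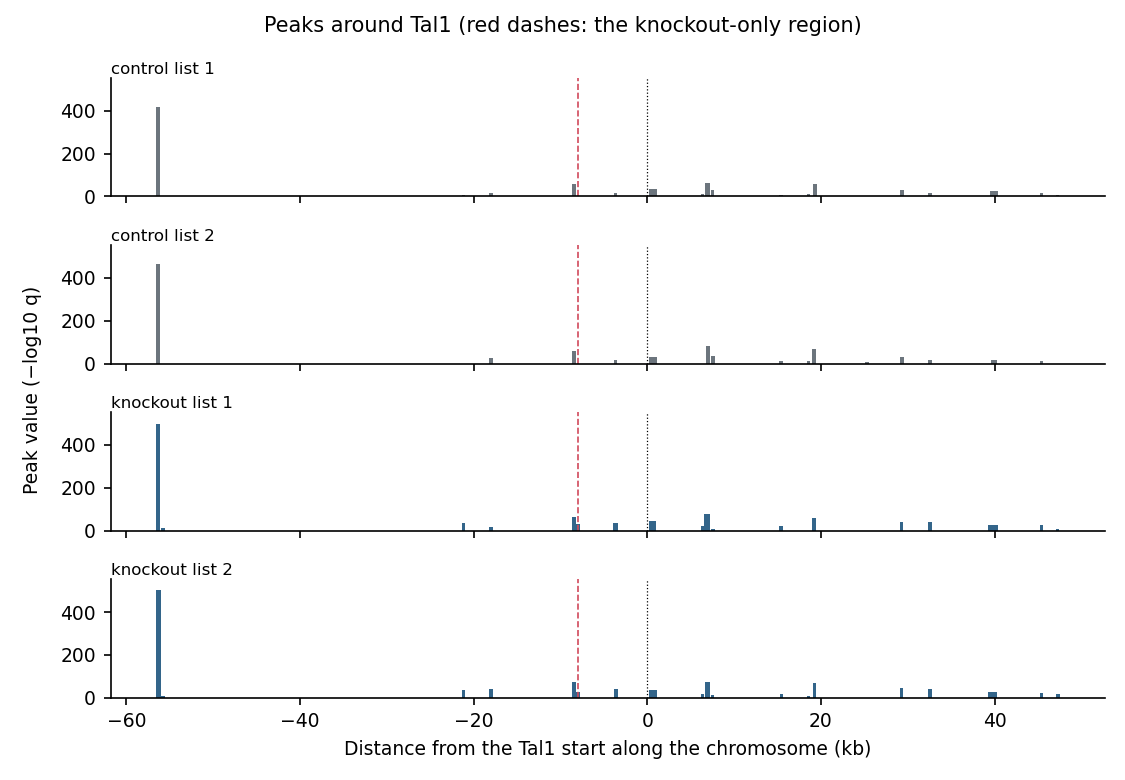
Peaks of the 4 ATAC lists around Tal1, as bars over their extent by distance from the gene start (x axis, kb along the chromosome) with height −log10 q (y axis). The region marked by red dashes, 7.97 kb before the start, has a bar of 29.4 and 29.0 in the knockout lists and none in the control lists.

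The other rises were at distant starts. Meis1, a homeobox partner of HOX proteins, stood at 22.1 and 20.9 TPM in control and at 62.2 and 59.8 TPM in knockout (log2 change 1.46, limma adjusted p = 3.4e-04), with its region 265 kb away. Mecom, the stem-cell zinc-finger factor EVI1, stood at 2.04 and 1.80 TPM in control and 6.20 and 6.08 TPM in knockout (log2 change 1.29, limma adjusted p = 0.0044). Its region lay 193 kb from the listed start, inside the longer RefSeq gene body. The nearest shared site, 27.9 kb from that region, had 14.9 and 15.9 in control against 54.7 and 52.6 in knockout. Cd34, the progenitor surface sialomucin, stood at 125 and 116 TPM in control and at 227 and 232 TPM in knockout (log2 change 0.92, limma adjusted p = 4.6e-04). No library of one genotype overlapped the other for these 3 genes.

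The falls in this group were smaller. Runx1, a master regulator of blood formation, stood at 102 and 94.9 TPM in control and at 64.3 and 61.8 TPM in knockout (log2 change −0.63, limma adjusted p = 0.0014). Erg, an ETS factor of stem cells, stood at 63.1 and 65.5 TPM in control and 44.7 and 45.4 TPM in knockout (log2 change −0.50, limma adjusted p = 0.0026). Gfi1b is a transcriptional repressor that acts in the erythroid and megakaryocyte lineages. It stood at 39.2 and 32.6 TPM in control and 19.1 and 22.0 TPM in knockout (log2 change −0.77, limma adjusted p = 0.0066). Zfpm1, the GATA cofactor FOG1, stood at 61.4 and 66.3 TPM in control and 53.6 and 49.96 TPM in knockout, and its call did not hold without control replicate 1, control replicate 2 or knockout replicate 2 (limma adjusted p = 0.024, and 0.055, 0.11 and 0.095). A knockout-only region with a stem-cell gene as its nearest start thus went with higher RNA in 4 genes and lower RNA in 4.

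Other lists touched few regions. Thy1 was the only T-lineage gene, Ctsg the only myeloid gene, Il1rl1 and Srgn the mast cell and basophil genes, Cxcl12 the stromal gene and Dusp6 the cytokine-signalling gene. No region was nearest to a gene of the erythroid and megakaryocyte, the dendritic, NK and innate lymphoid, or the B-lineage list. Those lists took 0.0981%, 0.186% and 0.0705% of distal regions in all 4 lists, which is under 1 region in 500 for each. The T-lineage share was 0.2%, against 0.222%. As whole lists, T-lineage genes were lower for 19 of 22 tested and higher for 0 (median log2 change −2.08). Mast cell and basophil genes were higher for 13 of 20 and lower for 1 (median 1.69). Over all tested genes 25.2% were higher and 14.7% lower. The T-lineage list holds Il2ra, which encodes the sort marker CD25, and the deleted genes Tcf7 and Lef1. The fall of Tcf7 was set by the deletion. The part of these list-wide shifts in the changes of single genes was not tested. Ctsg, the granule protease cathepsin G, stood at 134 and 136 TPM in control and at 286 and 299.98 TPM in knockout (log2 change 1.11, limma adjusted p = 2.0e-04), with its region 2.67 kb upstream. Cxcl12, a chemokine made by stroma, stood at 239 and 234 TPM in control and 653 and 537 TPM in knockout (log2 change 1.32, limma adjusted p = 6.7e-04). Srgn, the granule proteoglycan serglycin, and Dusp6, a phosphatase of ERK kinases, were not called (limma adjusted p = 0.24 and 0.14).

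RNA of the nearest genes was the measure that the choice of regions did not use. The 500 regions had 491 nearest genes, since 9 genes were nearest to 2 regions each. Of these, 327 had a mean of at least 1 TPM and were tested, and 164 were below that level, 30 of them listed at 0 in every library. In knockout, 89 of the 327 were higher (27.2%) and 58 lower (17.7%) by limma at an adjusted p under 0.05. Over all 13228 tested genes 25.2% were higher and 14.7% lower, so with all 4 libraries the shares of the nearest genes were close to the background in both directions. The median log2 change was 0.097, against 0.093 over all tested genes. Genes nearest to the other isolated knockout-only regions were higher in 26.3% and lower in 16.6% of cases, and those nearest to the 500 control-only regions in 24.0% and 21.9%.

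The balance of calls depended on how the RNA was scaled. As deposited, 36.8% of all calls were lower in knockout, but quantile normalization made it 46.8% and median-ratio scaling 48.2%. The shares of the nearest genes under those scalings were 23.2% higher in each, with 21.1% and 20.8% lower, against 19.7% and 19.5% higher and 17.4% and 18.1% lower over all tested genes. When each RNA library was left out in turn, 17.4% to 19.0% of the nearest genes were higher and 12.5% to 15.9% lower, against 15.2% to 16.9% and 8.22% to 10.96% over all tested genes. Without control replicate 1, 12.5% of the nearest genes were lower against 8.22% of all tested genes. Without control replicate 2 it was 13.5% against 8.53%, so the lower share then stood further above the background than with all 4 libraries. The drop was over 1.5 times for the higher share without control replicate 1 (17.4%) and without control replicate 2 (18.04%).

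Other RNA moved with genotype in every comparison of the nearest genes. Of 30 tested stromal genes, 23 were higher and 0 lower in knockout, with a summed level of 2748 and 2801 TPM in control and 4625 and 3997 TPM in knockout. The 4 Y-linked genes Ddx3y, Eif2s3y, Kdm5d and Uty, looked up afterwards, were all called lower in knockout, by 1.45 to 1.66 times, while Xist was under 1 TPM in every library. The part of stromal RNA, or of any other cells, in the differences below was not tested. In these bulk libraries, fewer cells of a type and less RNA per cell cannot be told apart.

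Called genes were found at every distance. Within 25 kb, 56 of 190 tested genes were higher (29.5%) and 28 lower (14.7%), against 25.2% and 14.7% of all tested genes. Genes within 25 kb of the other isolated knockout-only regions gave 27.1% and 16.6%, and those of the control-only regions 24.6% and 20.9%. At 25 to 100 kb, 22 of 99 were higher and 22 lower, and beyond 100 kb, 13 of 43 were higher and 9 lower. The medians were 0.16, −0.0071 and 0.17 on the log2 scale. A gene nearest to 2 regions could count in 2 of these ranges. Of the genes whose body held a region, 48 of 204 tested were higher (23.5%) and 36 lower (17.6%), with a median log2 change of 0.067. The plot of RNA change against distance shows both directions from the nearest to the farthest genes.

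**Figure D3:**
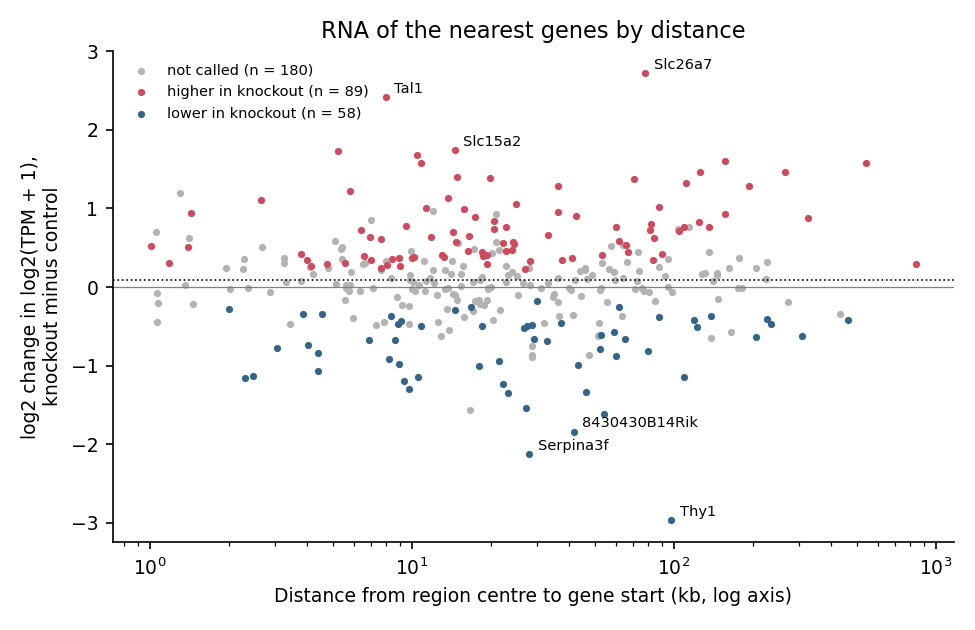
Change in log2(TPM + 1), knockout minus control (y axis), of the 327 tested nearest genes against the distance from region centre to gene start (x axis, kb, log axis). Red points are the 89 genes called higher, blue points the 58 called lower and grey points the 180 not called; the dotted line is the median of all tested genes, 0.093.

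The calls are given by rank as a description, since the ranks come from the values that chose the regions. Among the 250 strongest regions, 54 of 166 tested genes were higher (32.5%) and 30 lower (18.1%), with a median log2 change of 0.17. Among ranks 251 to 500, 37 of 165 were higher (22.4%) and 28 lower (17.0%), with a median of 0.069. In steps of 100, a division added after the data were seen, the higher share was 38.5%, 36.9%, 20.8%, 23.0% and 20.8%. The lower share stayed between 16.4% and 20.8%. Whether the ranks differ was not tested, since neighbouring regions and genes are not replicates.

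**Figure D4:**
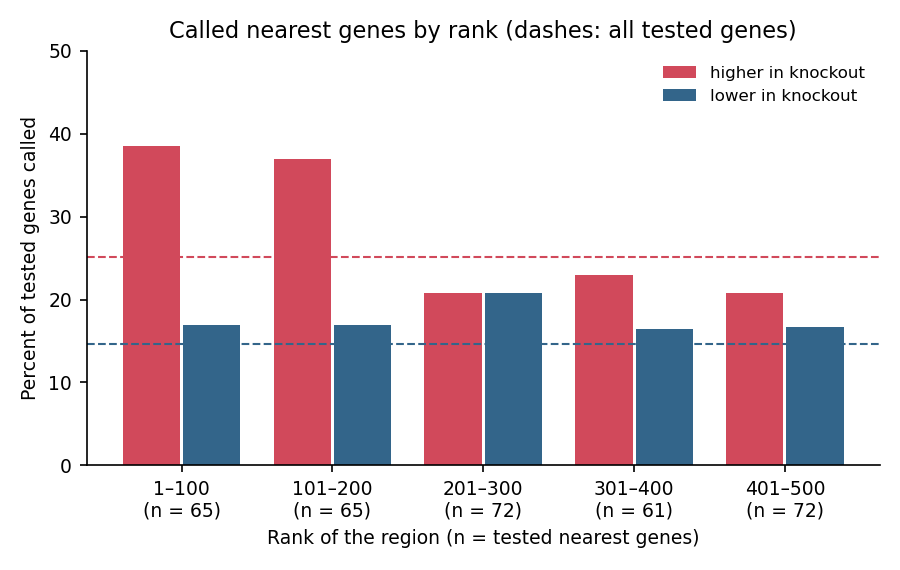
Percent of tested nearest genes called higher (red) or lower (blue) in knockout (y axis) for regions in steps of 100 ranks (x axis, with the number of tested genes). Dashed lines give 25.2% higher and 14.7% lower over all tested genes; the first and second steps reach 38.5% and 36.9% higher.

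Among the 286 tested nearest genes with a start within 100 kb, 77 were higher (26.9%) and 49 lower (17.1%), against 25.2% and 14.7% over all tested genes. Of the called genes, 16 rose and 14 fell by 1 or more in log2(TPM + 1). How many of all tested genes changed by that much was not counted, so these counts have no background beside them. The 10 largest rises were Slc26a7, Tal1, Slc15a2, Mtss1l, Etv5, Il1rl1, Mir5133, Spsb4, Igf1 and Sh3pxd2b. The 10 largest falls were Thy1, Serpina3f, 8430430B14Rik, Ly86, Pde2a, Dennd3, Chdh, Prkch, Sik1 and Mir6368. Their regions ranked from 16 to 488.

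Slc26a7, an anion exchanger, stood at 0.188 and 0.575 TPM in control and at 9.07 and 7.08 TPM in knockout (log2 change 2.72, SE 0.25, limma adjusted p = 0.0013). Its region lay inside the gene, 77.9 kb from the start, with modest values of 14.6 and 18.1. The gene start had no peak in control list 1, a peak of 5.94 in control list 2, and peaks of 44.7 and 46.9 in knockout. Here the start, not the distal region, showed the wider gap in peak value between genotypes. Slc15a2, a peptide transporter, was listed at 0.0288 and 0 TPM in control and at 2.58 and 2.21 TPM in knockout (limma adjusted p = 0.0062). Its region lay inside the gene, 14.6 kb from the start, and no list had a peak at that start.

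Several rises were in signalling and transcription genes. Etv5, an ETS factor downstream of growth factor signalling, stood at 7.09 and 7.68 TPM in control and at 27.5 and 24.3 TPM in knockout (log2 change 1.68, SE 0.12, limma adjusted p = 6.8e-04). Mtss1l, a membrane-bending protein, stood at 9.80 and 8.95 TPM in control and 36.4 and 30.5 TPM in knockout (log2 change 1.73, limma adjusted p = 7.1e-04). Both genes had groups that lay far apart. Il1rl1, the interleukin-33 receptor ST2 of mast cells and innate lymphoid cells, stood at 2.41 and 3.14 TPM in control and 11.3 and 9.27 TPM in knockout (log2 change 1.58, limma adjusted p = 0.0028). Its region lay 10.9 kb upstream of the listed start but inside the longer RefSeq gene body. The listed start had peaks of 26.9 and 22.2 in control and of 8.61 and 4.57 in knockout, so the peak values there were lower in knockout while the RNA rose.

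Sh3pxd2b, a podosome scaffold protein, stood at 8.31 and 7.53 TPM in control and at 22.9 and 18.8 TPM in knockout (log2 change 1.29, limma adjusted p = 0.0021). Igf1, insulin-like growth factor 1, stood at 1.62 and 1.495 TPM in control and 6.97 and 4.52 TPM in knockout (limma adjusted p = 0.0096, and 0.054 and 0.058 without control replicate 1 and without control replicate 2). Spsb4, a SOCS-box protein, lost its call without control replicate 2 or either knockout replicate (limma adjusted p of 0.070 to 0.13). The Mir5133 hairpin entry lost it without control replicate 1 or either knockout replicate (limma adjusted p of 0.061 to 0.15). Igf1 is also made by stromal cells. The summed stromal level was higher in both knockout libraries, and the part of stromal RNA in the Igf1 rise was not tested.

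The falls began with Thy1, the surface glycoprotein that marks T cells. Thy1 stood at 44.8 and 40.4 TPM in control and at 4.37 and 4.79 TPM in knockout, a 9.30-fold fall (log2 change −2.97, SE 0.11, limma adjusted p = 2.0e-04). A knockout-only region thus had a T-lineage gene with lower RNA as its nearest start, 98.0 kb away. Serpina3f, a serine protease inhibitor, stood at 6.96 and 8.43 TPM in control and 1.06 and 0.904 TPM in knockout (log2 change −2.13, limma adjusted p = 0.0014). The start peaks of Thy1 and Serpina3f differed little between lists, at 12.9 to 16.2 and 82.7 to 97.3.

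8430430B14Rik, a transcript with no assigned function, stood at 26.7 and 26.6 TPM in control and at 8.22 and 5.46 TPM in knockout (log2 change −1.84, limma adjusted p = 0.0017). It was nearest to 2 regions, ranks 87 and 129, which lie 26.2 kb apart and so just passed the isolation limit. Ly86, the MD-1 partner of a Toll-like receptor homologue, stood at 15.9 and 14.9 TPM in control and 3.27 and 5.66 TPM in knockout (log2 change −1.62, limma adjusted p = 0.0048). Pde2a, a cyclic nucleotide phosphodiesterase, stood at 8.30 and 11.3 TPM in control and 3.17 and 2.27 TPM in knockout (log2 change −1.53, limma adjusted p = 0.0049). The region assigned to Pde2a is the one at the Arap1 start printed above, and Arap1 RNA was also lower.

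Chdh, choline dehydrogenase of mitochondria, stood at 56.6 and 58.7 TPM in control and at 23.5 and 21.1 TPM in knockout (log2 change −1.33, limma adjusted p = 5.1e-04). The nearest shared site, 2.99 kb from the region, had peaks of 79.5 and 83.3 in control and of 8.44 and 8.64 in knockout. Sik1, a salt-inducible kinase, stood at 52.5 and 46.1 TPM in control and 21.9 and 19.1 TPM in knockout (log2 change −1.23, limma adjusted p = 0.0011). Its nearest shared site, 4.62 kb from the region, had 70.3 and 80.2 in control and 16.7 and 24.2 in knockout. At these loci, as at Ppfibp2, a knockout-only peak stood within 5 kb of a site with much lower peaks in knockout. These peak differences are a description of single values without a test.

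Prkch, protein kinase C eta, stood at 73.5 and 69.1 TPM in control and at 27.9 and 29.0 TPM in knockout (log2 change −1.30, limma adjusted p = 3.8e-04). Dennd3, an activator of a Rab GTPase, stood at 30.8 and 30.7 TPM in control and 12.1 and 10.8 TPM in knockout (log2 change −1.35, limma adjusted p = 7.6e-04). Their start peaks were alike in the 4 lists, at 149 to 161 for Prkch and 211 to 245 for Dennd3. The Mir6368 hairpin entry lies inside the long non-coding 2610307P16Rik and lost its call without either control library (limma adjusted p = 0.14 and 0.11). The plot of the 20 genes by library shows the gap between genotypes, which their choice required, beside the spread of the replicates.

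**Figure D5:**
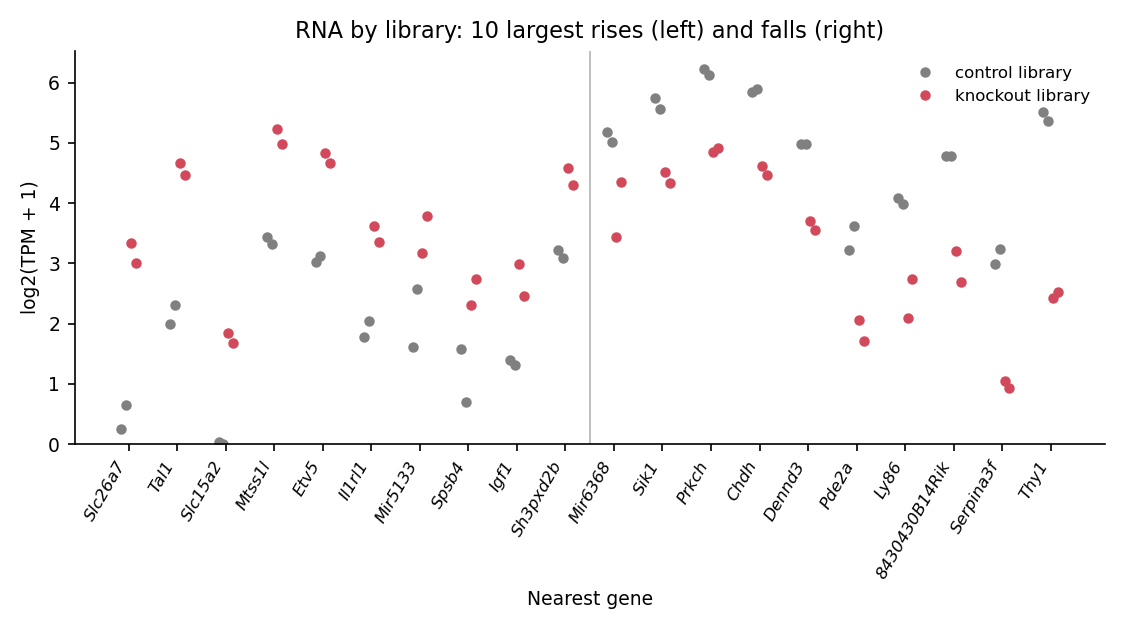
RNA as log2(TPM + 1) (y axis) in each control (grey) and knockout (red) library for the 10 largest rises (left of the line) and 10 largest falls (right) among nearest genes within 100 kb (x axis). Genes were drawn from called genes whose control and knockout libraries did not overlap, so a gap in each gene was set by that choice. The widest gaps are at Slc26a7, Tal1 and Thy1.

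The 9 genes nearest to 2 regions each were 1700007J10Rik, 8430430B14Rik, Adamts18, Gja1, Kalrn, Lrpap1, Tle1, Tln2 and Tmem2. Gja1, the gap junction protein connexin 43, stood at 13.4 and 12.1 TPM in control and at 43.9 and 36.9 TPM in knockout (log2 change 1.58, limma adjusted p = 7.7e-04). Its regions lay 544 and 221 kb from its start. Tln2, a talin that links integrins to actin, stood at 3.58 and 3.02 TPM in control and 9.60 and 6.45 TPM in knockout (limma adjusted p = 0.017). Tmem2, a hyaluronidase of the cell surface, and Lrpap1, a receptor chaperone, were also higher (log2 changes of 0.71 and 0.35, limma adjusted p = 0.011 and 0.010). The calls of Tln2 and Tmem2 were lost without control replicate 1, control replicate 2 or knockout replicate 1, with adjusted p of 0.055 to 0.095, and that of Lrpap1 without control replicate 1 or knockout replicate 1, with adjusted p of 0.057 and 0.054.

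Kalrn, a guanine nucleotide exchange factor, Tle1, a Groucho co-repressor that binds TCF factors, and 1700007J10Rik were not called (limma adjusted p = 0.97, 0.85 and 0.25). Tle1 stood at 10.4 and 8.63 TPM in control and at 11.8 and 6.85 TPM in knockout, with overlapping groups. Adamts18, a secreted metalloprotease, was under 1 TPM in every library although its start had peaks of 12.7 and 11.01 in the knockout lists and none in the control lists. Of these 9 genes, 8 were tested, of which 4 were higher, 1 was lower and 3 were not called, against 25.2% higher and 14.7% lower over all tested genes.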

How the data were processed

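The submitters' processing notes name mm10, HISAT2, StringTie, Bowtie2 and MACS2, without versions. Per the file headers, the expression tables have StringTie's layout. The deposited TPM and FPKM columns are the authors' values, and the deposited coverage column, a signal per base, served only to gauge depth. The authors' narrowPeak columns hold a score, a fold enrichment (a ratio over background), a −log10 p and a −log10 q. Each library has its own peak list, so replicates were not pooled. Not given in the sources used here are duplicate removal, read shifting, strand use and peak thresholds. ATAC depth is unknown, and the coverage to FPKM ratio, which follows RNA depth, was 2.41 and 2.12 in control and 2.64 and 2.63 in knockout.

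RNA was tested on log2(TPM + 1) with limma 3.58.1 in R 4.3.3 (trend, genotype only, mean TPM of at least 1, Benjamini-Hochberg under 0.05 over all tested genes). This scale understates the change of low genes. The test was checked on simulated data. Regions were handled in Python 3.11.15 with pandas 2.3.3.

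The regions, gene lists and named genes were chosen with earlier results of these data known. Named genes were those of the 15 strongest regions, the 10 largest rises and 10 largest falls among called nearest genes within 100 kb whose libraries did not overlap, list genes nearest a region, genes nearest to 2 regions, and Tcf7 and Lef1; some of them are not reported here. Lists covered T-lineage, stem and progenitor, myeloid, mast cell and basophil, erythroid and megakaryocyte, dendritic, NK and innate lymphoid, B-lineage, stromal and cytokine-signalling genes. Motif shares in the regions were planned but not analysed here for want of a genome; RefSeq promoter windows were searched instead. Rank steps of 100, distance bins, the split by fold enrichment and the Y-linked genes were added after the data were seen.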

Additional observations from a re-analysis of the deposited data

How the results depend on the processing

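The share of nearest genes with higher RNA (27.2%) and with lower RNA (17.7%) stayed within 1.5 times under every choice of regions and scaling tried. The exceptions were no filter on low values and leaving out 1 RNA library. Without the filter, 461 nearest genes were tested, against 327 with it, and 16.9% were higher and 11.5% lower. The calls over all tested genes fell too, to 2702 higher and 1638 lower, and the cause of the lower shares was not tested. Leaving out 1 RNA library gave 17.4% to 18.96% higher and 12.5% to 15.9% lower. Leaving out 1 ATAC list gave 28.7% to 30.3% higher and 16.0% to 19.5% lower. Without 1 RNA library, the calls over all tested genes ranged from 2005 to 2242 higher and 1088 to 1450 lower, against 3331 and 1940.

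The median log2 change of the nearest genes was 0.097, against 0.093 over all tested genes. The nearest-gene median kept its sign throughout, as did the median over all tested genes in every RNA setting. But the nearest-gene median often moved by more than 0.010, its SD over the 4 pairings of a knockout with a control library. Among choices of regions it was 0.11 with peaks within 100 bp merged, 0.12 with a −log10 q of at least 5, 0.13 over 5 kb from a gene start, 0.13 and 0.11 with isolation of 10 and 50 kb, 0.17 and 0.11 for the 250 and 1000 highest, 0.12 ranked by the mean, and 0.16 for starts within 25 kb. It was 0.089 to 0.15 without 1 ATAC list, and 7357 to 8448 isolated regions remained then, against 5963. Among RNA settings it was 0.11 with a pseudocount of 0.1, 0.11 with a minimum of 5 TPM, 0.026 with no filter, 0.071 with FPKM, 0.031 after quantile normalization, 0.027 after median-ratio scaling and 0.094 to 0.12 without 1 RNA library. Among alternatives chosen after seeing the data, it was 0.14 for regions over 1 kb from a region with a control peak and 0.15 for those with a fold enrichment of at least 5. The cause of these shifts was not tested.

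With the replicate block, 3072 genes were higher and 1798 lower over all tested genes, and 26.6% and 18.7% of the nearest genes. The numbers carry no origin in the labels, and same-numbered libraries did not deviate together (correlation 0.0043). Of 37 called named genes, 10 lost their call in at least 1 setting and none changed direction, while 4 named genes that were not called (Epb41, Phf20, Rsrc1 and Dusp6) gained a call in at least 1. Motif shares in summit windows were not run. Peak lists give no depth, so weak control signal under the callers' threshold was not detectable here.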

Other observations

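Chromosome X held 16 of the 500 regions (3.2%), against 2.21% of the other isolated knockout-only regions, 2.0% of the 500 strongest control-only regions and 1.75% of distal regions in all 4 lists. Chromosome Y held 1. Xist was at 0.218 and 0.297 TPM in control and 0.122 and 0.158 TPM in knockout. The Y-linked genes Ddx3y, Eif2s3y, Kdm5d and Uty were present in every library. Ddx3y stood at 56.3 and 57.0 TPM in control and at 35.6 and 38.2 TPM in knockout (log2 change −0.61, limma adjusted p = 0.0023).

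The regions did not gather at the deleted genes. Within 10 Mb of Tcf7 lay 6 of the 500 (1.2%), against 1.29% of distal regions in all 4 lists, and within 10 Mb of Lef1 lay 3 (0.6%), against 0.679%.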
